A study of Mus musculus with 4 samples.

Results

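The sequences described here are the longest small RNAs that the study placed in 3' UTR clusters of mouse liver and spleen, namely those of 27 nt or longer, the size of piRNAs bound by MIWI2. They were chosen by length alone. The 4 lists held 7845 distinct sequences, of which 2030 were 27 nt or longer: 1297 of 4273 in WT liver and 101 of 560 in Miwi2-/- liver, then 577 of 2634 in WT spleen and 55 of 378 in Miwi2-/- spleen. All libraries came from size-selected total RNA of adult C57BL/6 mice. By the series design text a single WT mouse and a single mouse lacking MIWI2 were used, and each tissue and genotype was 1 library with no replicate. Each test below therefore compares libraries, not tissues or genotypes. A list held each sequence once, whatever its number of reads, and the clusters that bound the lists were those of the WT tissues, so between 99.0% and 100% of the long sequences of a library lay in a deposited cluster. The number of distinct sequences is thus the only depth the lists give.

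piRNAs are small RNAs loaded into PIWI proteins, the germ line branch of the Argonaute family. They are cut from long single-stranded precursors, among them the 3' UTRs of mRNAs, and their 5' end is usually a uridine. Secondary piRNAs made by the ping-pong cycle instead carry an adenine at position 10, opposite the uridine of the guide that cut them, and phased piRNAs follow each other head to tail along a precursor. MIWI2, the product of Piwil4, is known for silencing of retrotransposons in the fetal testis. No sequence of any list lay in the 3' UTR of Piwil4, and since the lists are limited to clusters this does not check the knockout. The WT tissue labels could be compared with genes: 18 plasma protein genes had a sequence in WT liver against 0 in WT spleen. Of 44 blood and immune cell genes listed, 3 had a sequence in WT spleen. Alas2, the erythroid enzyme of heme synthesis, had 3 sequences there, 1 of them of 27 nt or longer. Runx1 had 6 there, and neither gene had any in the liver libraries. Trim25 did not separate the tissues, with 90 sequences in WT spleen and 91 in WT liver. The Miwi2-/- lists lie in the clusters of the WT tissue, so their genes do not check their labels.

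The sequences that carry the results below are printed first, 5' to 3' in the direction of the gene and with their place in NCBIM37 (mm9). The first set comes from the 3' UTR of Alb, the gene of serum albumin, on the plus strand, where long sequences of WT liver fell into 4 groups of 5' ends. One sequence is shown for each group, and capitals mark positions 1 and 10, at which piRNAs would show their base preferences.
Alb group 1, chr5:90905500-90905527: AaaagacatGaagactcaggactcatca
Alb group 2, chr5:90905527-90905554: TtttctgttGgtgtaaaatcaacaccca
Alb group 3, chr5:90905553-90905582: CtaaggaacAcaaatttctttaaacattta
Alb group 4, chr5:90905580-90905606: TtgacttctTgtctctgtgctgcaatc
The 4 began with A, U (written T), C and U, and 1 of them had an A at position 10. The sequence of group 4 was also in the Miwi2-/- liver list. The last base of all 4 was not in the genome.

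The second set comes from replication-dependent histone genes on chromosome 13. Their mRNAs are known to end without a poly(A) tail, just past a conserved stem-loop, and the pre-mRNA continues beyond the cut with a purine-rich element that pairs with U7 snRNA. The first pair spans the stem-loop, in capitals.
Hist1h1c, WT liver, plus strand, chr13:23831371-23831400: caatccaaaaGGCTCTTTTCAGAGCCacta
Hist1h3a, Miwi2-/- spleen, minus strand, chr13:23853756-23853783: ttaaccaaaGGCTCTTTTCAGAGCCaca
The others began past the stem-loop, and a capital marks a last base that the genome does not match.
Hist1h1c, WT and Miwi2-/- spleen, plus strand, chr13:23831411-23831438: agagctgtgacatttgtgtgattaatga
Hist1h3g, Miwi2-/- spleen, plus strand, chr13:23627782-23627808: tccaaaaaaagaactgtagcgcttttA
Hist1h4a, WT spleen, minus strand, chr13:23852631-23852657: ctgaaaaagcgctgtaatactgaacca

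The third set shows how long sequences enclose shorter ones of the same list. Capitals mark the longest exactly matching shorter sequence that lies inside.
Mbnl1, WT spleen, plus strand, chr3:60431246-60431274: aagggATATGCCATTTCTGAGACACAATA
Trim25, WT spleen, plus strand, chr11:88881026-88881055: agttAAATGGTGAAATGGAAAAGTCTTGAa
Scd1, WT liver, minus strand, chr19:44469915-44469942: ttataACAGTTTCCAGATGAATGTACTA
They held 15, 9 and 2 shorter sequences, respectively. In all 3 the 5' end of the long sequence lay upstream of that of the enclosed one. Other nested sequences shared only the 5' end instead, 27 of 85 in WT spleen and 49 of 204 in WT liver.

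The long sequences of WT liver formed the falling tail of the length distribution. There the number of distinct sequences went from 659 at 23 nt to 300 at 26 nt, 289 at 27 nt, 258 at 28 nt, 227 at 29 nt and 204 at 30 nt, with no second rise. In WT spleen 103 sequences of 28 nt stood beside 110 of 29 nt, in Miwi2-/- liver 14 beside 26 and in Miwi2-/- spleen 13 beside 13, steps that were not tested. The median of the long sequences was 29 nt in both WT libraries and in Miwi2-/- liver and 28 nt in Miwi2-/- spleen, and 45 sequences of WT liver, 12 of WT spleen, 1 of Miwi2-/- spleen and 0 of Miwi2-/- liver were longer than 32 nt. The gel cut also limits which lengths could appear, and a difference in that cut between libraries cannot be told apart from genotype or tissue.

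**Figure D1:**
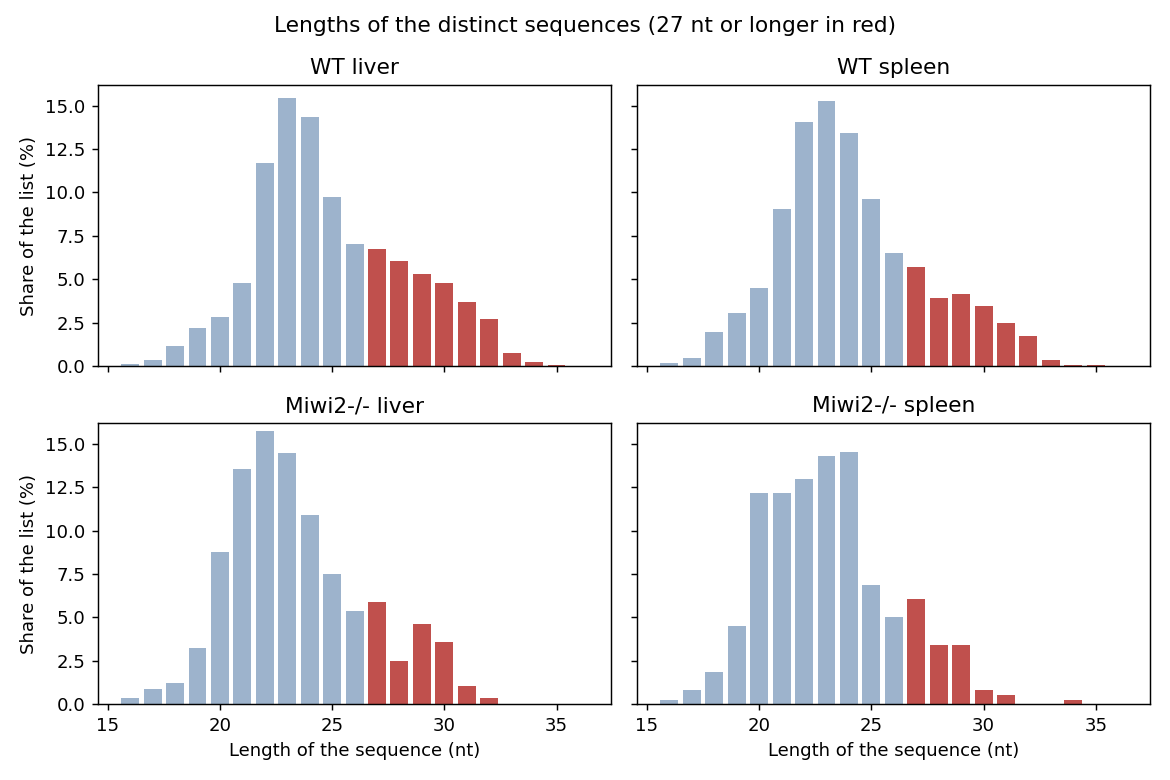
Share of each list (%) by length of the distinct sequence (nt) in the 4 libraries, with 27 nt or longer in red. Shares fell steadily above 23 nt in WT liver, from 15.4% at 23 nt to 6.76% at 27 nt and 2.74% at 32 nt.

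Long sequences made up 30.4% of the WT liver list (Wilson 95% interval 28.99 to 31.7) and 21.9% of the WT spleen list (20.4 to 23.5). The difference of 8.45 percentage points passed a two-sided Fisher's exact test (adjusted p = 6.55e-14 over 6 tests between libraries). The shares were lower in the Miwi2-/- libraries, 18.0% in liver (15.1 to 21.4) and 14.6% in spleen (11.4 to 18.5). Against WT the share was lower by 12.3 points in liver, where 18.0% stood against 30.4% (Fisher's exact test, adjusted p = 1.40e-09). In spleen 14.6% stood against 21.9% (adjusted p = 0.00180, Fisher's exact test). Among sequences matching the genome exactly, the spleen difference was -3.68 points (adjusted p = 0.649, Fisher's exact test). These intervals cover counting error only, and overlapping sequences are not independent, so the p values overstate the evidence. The Miwi2-/- lists were also much shorter, with 560 and 378 sequences against 4273 and 2634, and whether list size moves the share of long sequences was not tested.

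Every long sequence had a single best place in the genome with at most 1 mismatch. A 3' UTR of GENCODE M1 covered at least 50% of 1060 of the 1297 sequences of WT liver, 443 of the 577 of WT spleen, 93 of the 101 of Miwi2-/- liver and 45 of the 55 of Miwi2-/- spleen. In this order a further 179, 95, 4 and 10 lay within 2 kb downstream of a 3' UTR, and 58, 39, 4 and 0 lay elsewhere. Downstream sequences made up 13.8% of the long sequences of WT liver and 16.5% of those of WT spleen, against 9.86% and 7.79% of the sequences of 21 to 25 nt in these libraries. In Miwi2-/- liver 3.96% stood against 4.89%, the other way, and in Miwi2-/- spleen 18.2% against 5.65%. These differences were not tested. Sequences in 3' UTRs of both strands, between 1 and 5 per library, had no direction and were left out of base values. The microRNA gene Mir21, which lies in the 3' UTR of Vmp1, held only 2, 1, 0 and 1 long sequences in the order above, but 158, 152, 69 and 50 of the sequences of 21 to 25 nt.

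In the WT libraries the first base of the long sequences was not mainly the uridine typical of piRNAs. In WT liver 40.3% of 1055 sequences began with A (interval 37.4 to 43.3), 32.7% with U (29.9 to 35.6), 17.8% with C and 9.19% with G. The 3' UTRs they came from, weighted by the number of sequences, held 27.1% A, 29.6% U, 21.5% C and 21.7% G, so that the first base was richer in A by 13.2 points, poorer in G by 12.5 points and within 3.08 points of these 3' UTRs for U. WT spleen was alike, with 41.1% A, 28.9% U, 20.5% C and 9.55% G among 440 sequences, beside 26.3% A, 30.1% U, 21.1% C and 22.6% G in the 3' UTRs. In the small Miwi2-/- sets the order of A and U was turned. Miwi2-/- liver had 40.2% U (30.8 to 50.4) and 30.4% A (21.97 to 40.5) among 92 sequences, and Miwi2-/- spleen had 38.6% U (25.7 to 53.4) and 31.8% A (20 to 46.6) among 44. G stayed low, at 8.70% and 11.4%. The base just before the 5' end in the genome was A in 29.5% and U in 31.7% in WT liver, near the composition of the 3' UTRs.

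Set against sequences of 21 to 25 nt of the same library, long sequences began less often with U in WT liver (32.7% against 41.1%) and in WT spleen (28.9% against 40.8%), each with an adjusted p of 4.27e-05 by Fisher's exact test over 20 tests within libraries. They began more often with A in WT liver (40.3% against 35.6%, adjusted p = 0.0244, Fisher's exact test). These calls were lost without Mir21, most of whose shorter sequences began with U. The share of A in WT liver was then 40.4% against 38.1% (adjusted p = 0.459, Fisher's exact test). The shares of U were 32.6% against 37.1% in WT liver and 28.7% against 34.8% in WT spleen, with an adjusted p of 0.124 for both by Fisher's exact test. Without Mir21, 0 of the 20 tests within libraries passed by Fisher's exact test with Benjamini-Hochberg adjustment, while 3 had an unadjusted p under 0.05. The interval of each share is wide enough that this does not show the length classes to be alike.

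Adenine at position 10, the mark of secondary piRNAs, was not raised above the other positions in WT liver. A stood at position 10 in 29.6% of long sequences in WT liver (26.9 to 32.4), below the mean of 31.7% over the other positions from 2 to 26, and 18 of these 24 positions had more A. In WT spleen it stood there in 30.9% (26.8 to 35.4), beside a mean of 30.3%, and 8 of 24 positions had more. The Miwi2-/- values were 22.8% (15.4 to 32.4) in liver and 34.1% (21.9 to 48.9) in spleen, beside means of 29.9% and 31.2%. Uridine at position 1 and A at position 10 occurred together in 10.0%, 9.09%, 7.61% and 15.9% of long sequences in the order WT liver, WT spleen, Miwi2-/- liver and Miwi2-/- spleen. Against 21 to 25 nt, position 10 held less A in WT liver (29.6% against 37.2%, adjusted p = 0.000122) and in Miwi2-/- liver (22.8% against 43.1%, adjusted p = 0.00136, both Fisher's exact test). Without Mir21 these shares were 29.4% against 32.8% (adjusted p = 0.226) and 22.8% against 30.5% (adjusted p = 0.399), again by Fisher's exact test. The lists print all sequences in the direction of the plus strand, so an antisense partner could not be looked for.

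**Figure D2:**
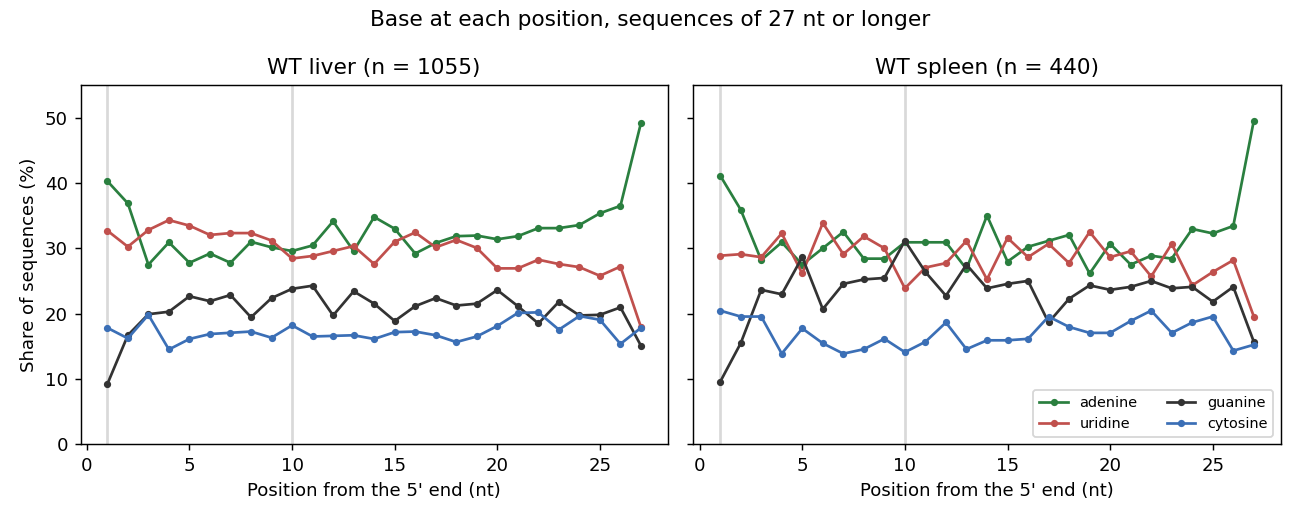
Share of adenine, uridine, guanine and cytosine (%) at each position from the 5' end (nt) in sequences of 27 nt or longer of WT liver (n = 1055) and WT spleen (n = 440), with grey lines at positions 1 and 10. Adenine led at position 1 with 40.3% and 41.1%, guanine was lowest there with 9.19% and 9.55%, and position 10 did not stand out for adenine.

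The plot of bases also shows adenine at the 3' end. The last base was A in 88.3% of the long sequences of WT liver and 88.6% of those of WT spleen, and in 92.4% and 93.2% of those of Miwi2-/- liver and spleen. In 468 of 1055, 216 of 440, 55 of 92 and 28 of 44, in the same order, this A was not in the genome. A further 81 of the WT liver sequences ended in ATC, and in 74 of these a base was unmatched at this end, as in the Alb sequence of group 4. Ends in A or ATC together made up 96.0% of the long sequences of WT liver. The 3' adapter of the Illumina small RNA v1.5 kit is known to begin with ATC, so a base left from the adapter and a base added to the RNA cannot be told apart, and the true length of such a sequence may be shorter by 1 nt or a few. Of the 289 sequences of exactly 27 nt in WT liver, 126 reached that length with an unmatched A. A last A that the genome also holds was not counted among the 126, nor left out of any length. The unmatched base also bears on direction. On an RNA from the other strand it would appear as an unmatched U at position 1, which was seen in 8, 4, 0 and 0 long sequences, against 468, 216, 55 and 28 with the unmatched A at the 3' end.

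Between long sequences and those of 21 to 25 nt the unmatched A gave no call in the WT libraries, at 44.4% against 45.6% in liver (adjusted p = 0.603) and 49.1% against 44.2% in spleen (adjusted p = 0.122, both Fisher's exact test). Other settings did give calls there: -8.99 points in WT liver with this A left out of the length, and 10.1 points in WT spleen against all sequences under 27 nt. It was more frequent in long sequences of Miwi2-/- liver (59.8% against 38.8%, adjusted p = 0.00145) and Miwi2-/- spleen (63.6% against 38.8%, adjusted p = 0.00895, both Fisher's exact test). Without Mir21 the shorter sequences had 48.0% and 49.1%, and these differences had an adjusted p of 0.226 and 0.242 by Fisher's exact test. The unmatched A also adds 1 nt to the length by which the sets were chosen. With it left out of the length, the Miwi2-/- differences were 14.3 points in liver and 9.05 points in spleen (adjusted p = 0.0550 and 0.482, Fisher's exact test).

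Few long sequences shared a 5' end. The 1055 of WT liver had 1022 distinct 5' ends, and 62 sequences, 5.88%, shared theirs with another. In WT spleen 34 of 440 did, in Miwi2-/- liver 0 of 92 and in Miwi2-/- spleen 4 of 44. In WT liver, pairs of distinct 5' ends of one gene numbered 190 at 1 to 10 nt, 128 at 11 to 20 nt, 127 at 21 to 30 nt, 94 at 31 to 40 nt, 77 at 41 to 50 nt and 82 at 51 to 60 nt. Alb alone gave 61 of the 127 pairs at 21 to 30 nt, or 48.0%. Without Alb the counts were 134, 92, 66, 64, 43 and 50, with no rise at 21 to 30 nt. Phased piRNAs would show 5' ends just past the 3' end of their neighbour. Offsets from the matched 3' end to another 5' end had no peak at 1 to 5 nt in WT liver. Over all genes there were 63 pairs at -4 to 0 nt, 51 at 1 to 5 nt, 52 at 6 to 10 nt and 36 at 11 to 15 nt. Without Alb these counts were 36, 29, 40 and 26. In WT spleen the pairs were close together, 66 at 1 to 10 nt and between 2 and 8 in each further class. Leaving out Hist1h1c brought the 66 down to 30.

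**Figure D3:**
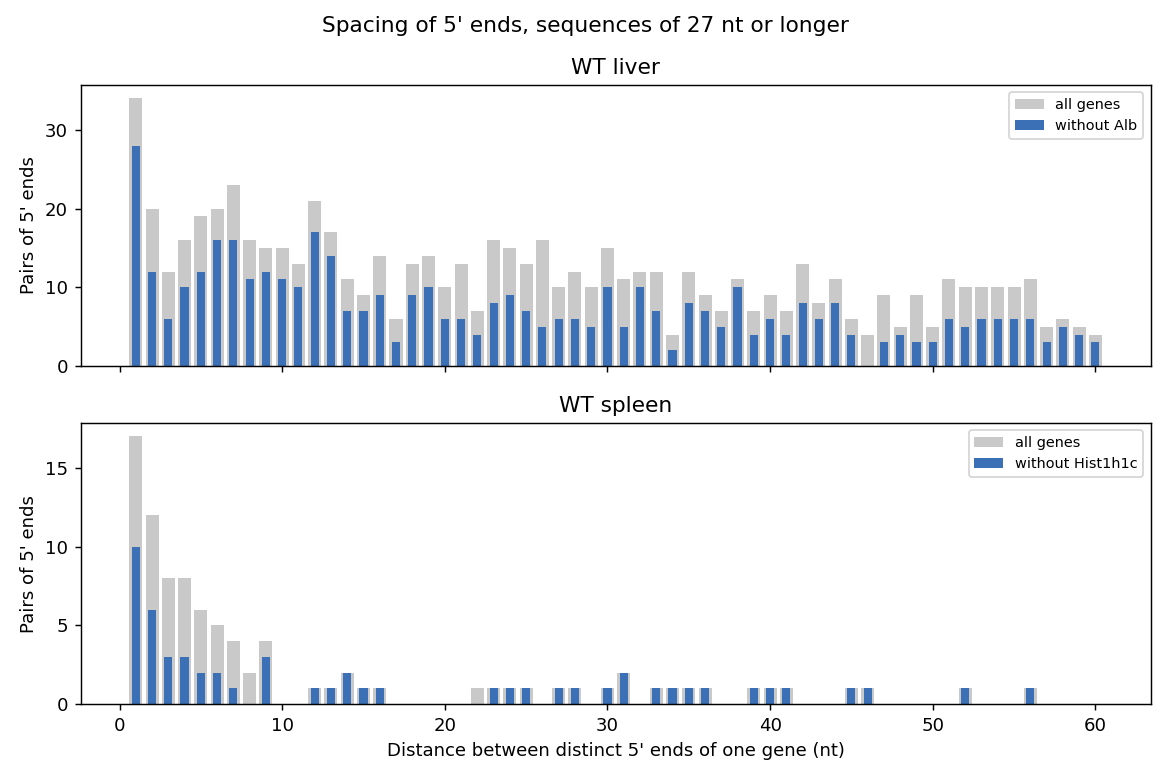
Number of pairs of distinct 5' ends of one gene (y axis) by distance (nt, x axis) in sequences of 27 nt or longer, for all genes (grey) and without the gene named (blue). In WT liver Alb gave 61 of 127 pairs at 21 to 30 nt, and in WT spleen 36 of 66 pairs at 1 to 10 nt were lost without Hist1h1c.

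Alb gave the most pairs of 5' ends at 21 to 30 nt in WT liver, and its long sequences fell into groups at similar steps. Regular steps were not searched for in other genes. Its 3' UTR of 173 nt (chr5, plus strand) held 84 sequences in WT liver, of which 39 were long. Split at gaps of at least 8 nt, their 5' ends formed 4 groups of 11, 8, 10 and 10 sequences, whose medians lay 129, 102, 76 and 49.5 nt before the last base of the 3' UTR. The steps between these medians were 27, 26 and 26.5 nt. The first group was 32 nt wide, broader than the step, and the others were 11, 10 and 15 nt wide. Matched 3' ends of the second group reached 90905559, past the first 5' end of the third at 90905547, so neighbouring groups overlapped rather than abutted. The 45 shorter Alb sequences had another layout, with 24 in the window of the first group, 2, 2 and 3 in the others and 14 outside. Miwi2-/- liver had 6 long Alb sequences, of which 1 began in the second window, 4 in the fourth and 1 outside. The groups were drawn after the 5' ends had been seen, so no test was made of them.

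Histone genes held the densest group of long sequences in spleen. Hist1h1c, the gene of linker histone H1.2, had 25 in WT spleen, 5 in Miwi2-/- spleen, 2 in WT liver and 0 in Miwi2-/- liver. The stem-loop, searched as GGCNCTTNTNAGNGCC on both strands, was in 5 of the 583 single-exon 3' UTRs that had a sequence, 0.858%, all 5 of them histone genes, and on the other strand of none. In Hist1h1c it lay at chr13:23831381-23831396, inside an annotated 3' UTR of 882 nt that runs on past it. Of the 25 long sequences of WT spleen, 22 began 7 to 16 nt past its last base, with a median of 11 nt, and all 5 of Miwi2-/- spleen began 9 to 16 nt past it, with a median of 13 nt. The 2 spleen groups overlapped fully, and 41 shorter sequences of WT spleen began 6 to 21 nt past the stem-loop. Some other histone genes had long sequences at this place. In Hist1h3g, a gene of histone H3, 3 long sequences of Miwi2-/- spleen began 9 to 12 nt past the stem-loop, as did 4 shorter ones of WT spleen at 11 to 12 nt. Hist1h3a had 2 long sequences of WT spleen, 10 and 19 nt past it, and Hist1h4a, a gene of histone H4, had 1, at 12 nt. The 8 long sequences of Hist1h4h in WT spleen and its 2 in Miwi2-/- spleen began further on, between 127 and 1982 nt past the stem-loop. In all, counting those downstream of the 3' UTR, 25 of 37 long histone sequences of WT spleen and 8 of 12 of Miwi2-/- spleen began within 40 nt past a stem-loop, as did 51 of 77 and 30 of 47 shorter ones. In WT liver 0 of 5 long but 4 of 12 shorter ones did, the 4 in Hist1h1c at 10 to 14 nt, and Miwi2-/- liver had a single histone sequence, which did not. Each of the long histone sequences had a single best place. With 1 library per tissue, a difference between liver and spleen in proliferating cells, which express these histones, and in RNA per cell cannot be told apart.

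**Figure D4:**
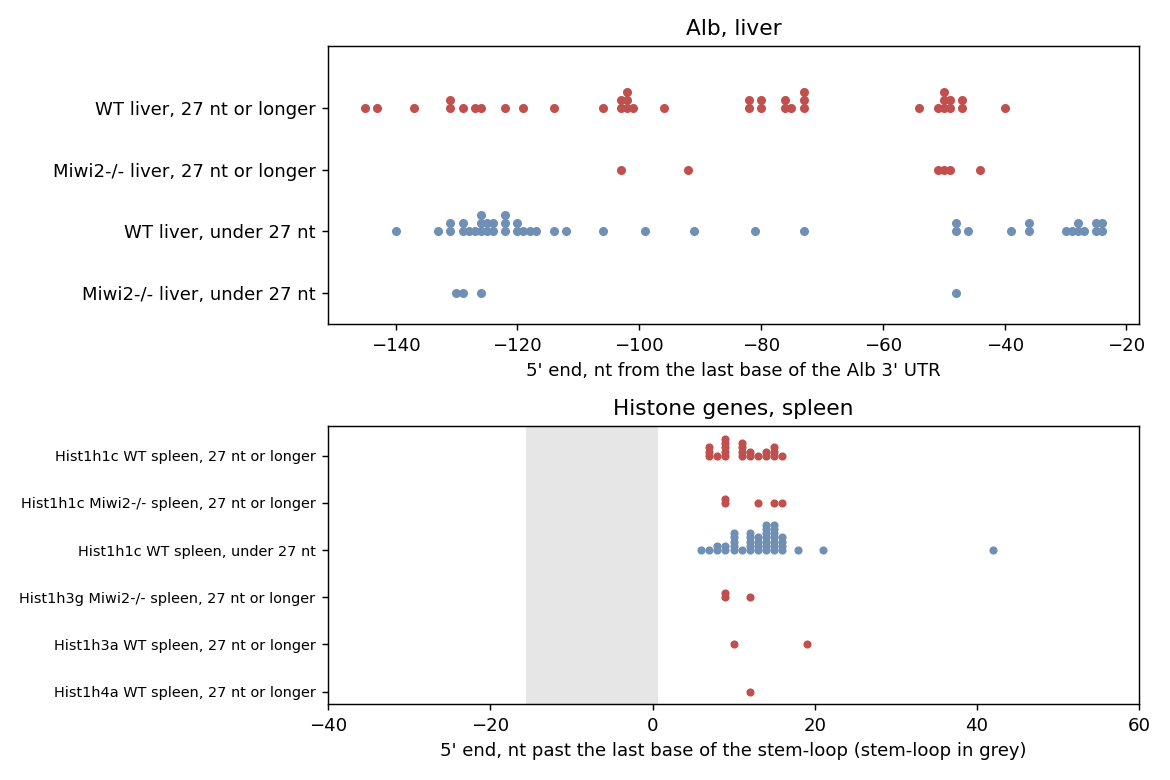
Positions of 5' ends, 1 point per sequence, with 27 nt or longer in red and shorter in blue. Top, Alb in liver, in nt from the last base of the 3' UTR, where the 39 long sequences of WT liver form 4 groups about 26 to 27 nt apart. Bottom, histone genes in spleen, in nt past the stem-loop (grey band), where 22 long Hist1h1c sequences of WT spleen and 5 of Miwi2-/- spleen begin 7 to 16 nt past it.

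Long sequences were spread over many genes. They touched 367 of 495 genes with a 3' UTR sequence in WT liver, 74.1%, and 221 of 348 in WT spleen, 63.5%. The knockout libraries had 70 of 211 (33.2%) for liver and 34 of 131 (26%) for spleen. In 156 of the 367 and 123 of the 221 there was a single one. The 5 genes with the most long sequences held 16.6% of those in WT liver and 15.3% of those in WT spleen.

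In WT liver the leading gene was Scd1, the stearoyl-CoA desaturase of hepatic lipid synthesis, with 65 long of 135 sequences over a 3' UTR of 3471 nt (chr19:44468941-44472411, minus strand). Alb followed with 39 of 84, then 4933403F05Rik with 26 of 67, Trim25, an E3 ubiquitin ligase of the antiviral response, with 26 of 91, and Errfi1, an inhibitor of the EGF receptor, with 20 of 70. In Miwi2-/- liver the same leading pair had 6 each, of 34 sequences for Scd1 and 10 for Alb, and Elovl5, a fatty acid elongase, had 3 of 3. In WT spleen Hist1h1c with 25 of 75 was followed by Trim25 with 17 of 90, Mbnl1, a regulator of splicing, with 13 of 49, Etnk1, an ethanolamine kinase, with 7 of 30, and Elk4, an ETS transcription factor, with 6 of 13. Miwi2-/- spleen had 5 of 32 in Hist1h1c, 3 of 7 in Hist1h3g and 2 of 4 in Cpm, the gene of carboxypeptidase M.

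The share of long sequences differed widely between genes. Among 75 genes with at least 10 sequences in WT liver its median was 30.8%. It was highest in Rbp4, the plasma carrier of retinol, with 13 of 21, Lrp1, a lipoprotein receptor, with 6 of 10, and Pgrmc1 with 9 of 16. It was lowest in AI464131 with 0 of 12, Vmp1 with 3 of 217 and Gpam, the first enzyme of glycerolipid synthesis, with 1 of 14. The low share of Vmp1 goes with the 158 sequences of 21 to 25 nt that lay in Mir21. Among 37 such genes of WT spleen the median was 23.3%. The highest shares were those of Wnk1, a kinase that regulates ion transport, with 6 of 12, Elk4 with 6 of 13 and Dazap2 with 5 of 12. The lowest were those of 4933403F05Rik with 0 of 21, Dcp2, the mRNA decapping enzyme, with 0 of 12 and Gxylt1 with 0 of 12. AI464131, with 0 of 10, tied with these at 0 and ranked behind them by its number of sequences. The gene 4933403F05Rik thus had 26 long sequences in WT liver and none in WT spleen. Shares from 10 to 20 sequences have wide counting errors, and these genes were ranked on the shares themselves.

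Genes of liver function carried long sequences in liver. In WT liver their shares came near that of the whole list once their leading gene was left out. Of 18 plasma protein genes with a sequence in WT liver all 18 had a long one, beside 74.1% of all genes. They held 108 long of 297 sequences, 36.4% beside 30.4% of the whole list, or 32.4% without Alb, led by Alb with 39, Serpina3k, a serine protease inhibitor, with 15, Rbp4 with 13 and Saa1, an acute phase protein, with 7. In Miwi2-/- liver 7 of 13 did, beside 33.2% of all genes. They held 15 long of 36 sequences there, 41.7% beside 18.0% of the whole list. Without Alb it was 9 of 26, 34.6%. Of the hepatocyte enzymes and transporters 18 of 21 had a long sequence in WT liver, with 133 long of 352 sequences, 37.8%. Scd1 alone gave 65 of the 133, and without it the share was 31.3%. In Miwi2-/- liver 9 of 17 of these genes had a long sequence, with 17 long of 70 sequences, 24.3% beside 18.0% of the whole list. Without Scd1 it was 11 of 36, 30.6%. These shares rest on small counts and were not tested. Blood and immune cell genes were few: 3 of 3 in WT spleen, namely Trim25, Alas2 and Runx1, and 1 of 2 in Miwi2-/- spleen. Of the small RNA machinery only Eif2c1, which encodes Argonaute 1, had a long sequence, 1 of 3 sequences in WT liver. Replication-dependent histones had long sequences in 3 of 5 genes in each spleen library, beside 63.5% of all genes in WT and 26% in Miwi2-/-. They held 28 long of 91 sequences in WT, 30.8% beside 21.9% of the whole list, and 9 of 45 in Miwi2-/-, 20% beside 14.6%. Without Hist1h1c the WT share was 18.8%, while that of Miwi2-/- spleen was 30.8%, or 4 of 13 sequences.

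Many long sequences stood alone. In WT liver 619 of 1239 with a gene, 49.96%, overlapped no other sequence of their list, as did 65.1% of those of WT spleen and 81.4% and 69.1% of those of Miwi2-/- liver and spleen. This share was not measured for shorter sequences, so it is not shown to be particular to long ones. The lists also differed widely in size, which was not allowed for. Long sequences that held a whole shorter one of the same library numbered 204 in WT liver, 15.7% (13.8 to 17.8), and 7 in Miwi2-/- liver, 6.93% (3.40 to 13.6). The spleen libraries had 85 in WT, 14.7% (12.1 to 17.9), and 12 in Miwi2-/-, 21.8% (12.9 to 34.4). Miwi2-/- liver was below WT liver (adjusted p = 0.0210, Fisher's exact test), where the list to be held was also shorter, with 459 against 2976 shorter sequences. WT liver and WT spleen (adjusted p = 0.628) and the spleen libraries (adjusted p = 0.205, both Fisher's exact test) gave no call. Of the 204 in WT liver, 49 shared only the 5' end with an enclosed sequence, 48 only the 3' end and 7 both with different sequences, while in 100 both ends lay outside every enclosed one. In WT spleen these numbers were 27, 14, 20 and 24. Ends were taken as listed, with an unmatched last base included, so a shared matched 3' end could be missed. The counts of shared 5' and 3' ends therefore cannot be set against each other in either WT library.

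Along the 3' UTR the long sequences lay at all depths. Their midpoints had a median of 0.54 of the length from the stop codon in WT liver (middle 50% from 0.27 to 0.77) and 0.47 in WT spleen (0.17 to 0.74), and of 0.54 and 0.53 in Miwi2-/- liver and spleen. The last 25% of the 3' UTR held 27.1% of them in WT liver and 24.8% in WT spleen, against 35.7% and 34.8% of the sequences of 21 to 25 nt (adjusted p = 3.29e-05 and 0.000416, Fisher's exact test). In Miwi2-/- liver it held 27.3% against 46.9% and in Miwi2-/- spleen 25% against 43.8% (adjusted p = 0.00247 and 0.0497, Fisher's exact test). Mir21 sits in the last 25% of the Vmp1 3' UTR, and without it the WT values were 26.9% against 30.2% and 24.7% against 26.8% (adjusted p = 0.226 and 0.651, Fisher's exact test). The Miwi2-/- values without Mir21 were 27.3% against 32.1% in liver and 23.3% against 25.9% in spleen (adjusted p = 0.651 and 0.906, Fisher's exact test), so that all 4 calls were lost. In WT liver 152 of 1023 long sequences, 14.9%, had their midpoint within 100 nt of the annotated 3' end, beside 15.5% at 21 to 25 nt. In WT spleen it was 9.20% beside 10.4%. The Miwi2-/- libraries went the other way, with 20.5% beside 11.9% in liver and 15.9% beside 12.0% in spleen. These shares include Mir21 and were not tested.

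**Figure D5:**
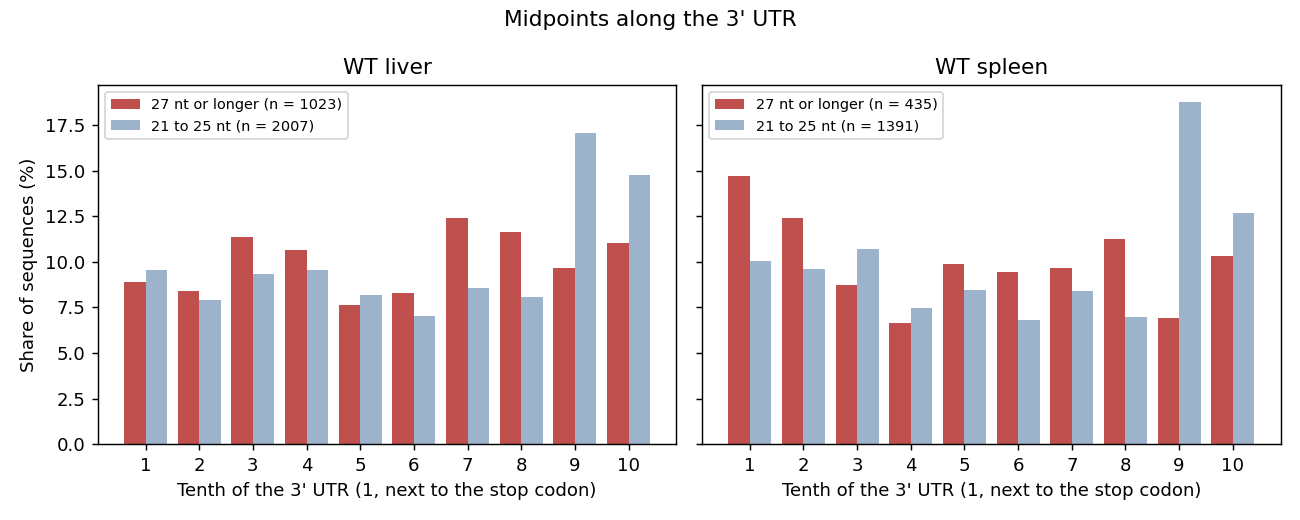
Share of sequences (%) in each of 10 equal stretches of the 3' UTR, from the stop codon (1) to the annotated 3' end (10), for 27 nt or longer (red) and 21 to 25 nt (blue) in the WT libraries. Long sequences stayed between 7.62% and 12.4% per stretch in WT liver, while 21 to 25 nt reached 17.0% (liver) and 18.8% (spleen) in stretch 9, which holds Mir21.

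Few individual long sequences recurred. By share they were fewer than at 21 to 25 nt with Mir21 included, a difference that was not tested. Of the 101 in Miwi2-/- liver 2 were in the WT liver list, 6 of 97 with a gene shared a 5' end with a long WT sequence, and 34 overlapped one. Of the 55 in Miwi2-/- spleen 3 were in the WT spleen list, 9 shared a 5' end and 15 overlapped. Between WT spleen and WT liver 1 of 577 was the same and 28 overlapped. At 21 to 25 nt, Mir21 included, the same sequences numbered 83 of 348 for the livers (23.9%), 71 of 230 for the spleens (30.9%) and 155 of 1617 between the WT tissues (9.59%). Mir21 held 69 of the 348, 50 of the 230 and 152 of the 1617, and recurrence without it was not measured. By gene, 61 of the 70 in Miwi2-/- liver (87.1%) were among the 367 of WT liver (16.6% of these), and 25 of the 34 in Miwi2-/- spleen (73.5%) among the 221 of WT spleen (11.3%). Since the clusters were those of WT tissues, part of this overlap was set by how the lists were made. Long sequences of both WT tissues lay in 27 genes, 12.2% of those of spleen and 7.36% of those of liver. With sequences of any length 53 genes were shared, 15.2% and 10.7%, so that the lists themselves had few genes in common.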

How the data were processed

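The authors trimmed the 3' adapter (cutadapt), removed known non-coding RNAs, aligned reads to mm9 (Bowtie) and deposited, for each library, the distinct sequences in 3' UTR clusters, without read counts, positions or header, and the WT clusters of each tissue as intervals with a RefSeq accession and strand. CASAVA 1.8 and bedtools are named in the submitters' processing notes. Here every sequence was placed on NCBIM37 without gaps and with at most 1 mismatch, the single best place was kept, and placement was tested on simulated data. Genes and direction were taken from GENCODE M1 3' UTRs covering at least 50% of a sequence. Small RNAs antisense to the gene could therefore not be recognised with certainty. Sequences with an unmatched U at position 1 were kept in the base shares. Shares were compared by two-sided Fisher's exact tests with Benjamini-Hochberg adjustment, over 20 tests within and 6 between libraries, and given with Wilson 95% intervals (Python 3.11.15, scipy 1.17.1, statsmodels 0.14.6, matplotlib 3.10.9). Genes named were the 5 (WT) or 3 (Miwi2-/-) with the most long sequences, the 3 highest and 3 lowest shares among genes with at least 10 sequences in each WT library, and members of 5 gene lists. The members and lists were chosen with earlier results of these data known.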

Additional observations from a re-analysis of the deposited data

Results flagged for a closer look

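The unmatched A at the 3' end set long sequences apart from those of 21 to 25 nt by 21.01 percentage points in Miwi2-/- liver and by -1.20 points in WT liver, and a Breslow-Day chi-square test of equal odds ratios found these to differ between the libraries (adjusted p = 0.00461 over 15 tests). Without Mir21 the values were 11.7 and -4.69 points (adjusted p = 0.148, same chi-square test). The unmatched A adds 1 nt to the length that defines the sets. With it left out of the length, the values were 14.3 points in Miwi2-/- liver and -8.99 points in WT liver. With 1 library on each side, library and genotype cannot be told apart.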

How the results depend on the processing

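Of 340 values recomputed under alternatives, 263 kept their direction and their side of the threshold or stayed near the main count, 41 lost their call, 7 gained one, 9 moved and 20 changed sign. Of these 20, only the last 25% of the 3' UTR in Miwi2-/- liver had a call to lose, and none had one after the change. Values are percentage points, long minus 21 to 25 nt, unless stated. The order is WT liver, WT spleen, Miwi2-/- liver, Miwi2-/- spleen where 4 values are given. Without Mir21, which lies almost wholly in the shorter set, these lost their call: 5' A in WT liver (2.28), 5' U in WT liver (-4.56) and WT spleen (-6.15), A at position 10 in WT liver (-3.39) and Miwi2-/- liver (-7.64), the last 25% of the 3' UTR (-3.30, -2.14, -4.86 and -2.69) and the unmatched A in Miwi2-/- liver (11.7) and spleen (16.1). The sign turned for 5' A in WT spleen (-1.67) and Miwi2-/- spleen (-2.03), 5' U in Miwi2-/- liver (7.01) and A at position 10 in WT spleen (1.64) and Miwi2-/- spleen (5.51). With 1 sequence per 5' end the same set lost theirs, at 2.66, -4.41 and -5.21, -3.56 and -7.70, then -3.48, -2.35, -4.96 and -2.76, then 13.6 and 12.9, and the nested share of Miwi2-/- liver minus WT liver did too (-7.58). The sign turned for 5' A in WT spleen (-0.086), 5' U in Miwi2-/- liver (7.29) and A at position 10 in WT spleen (1.35) and Miwi2-/- spleen (6.54). With exact matches only, which leaves fewer sequences, the values without a call were 5' A 1.45 in WT liver, 5' U -4.58 and -9.17 in the WT libraries, A at position 10 -1.94 in WT liver and -27.5 in Miwi2-/- liver, the last 25% -6.37, -2.47 and -0.66 in WT liver, WT spleen and Miwi2-/- spleen, the nested share -5.35 between the livers and the share of long sequences -3.68 between the spleens. The sign turned there for the last 25% in Miwi2-/- liver (2.95), 5' A (-1.68) and A at position 10 (0.32) in WT spleen, 5' U in Miwi2-/- liver (10.97) and spleen (1.95), and the nested share of WT liver minus WT spleen (-1.49) and of Miwi2-/- spleen minus WT spleen (-2.18). Genes with a long sequence then numbered 224, 112, 23 and 13, and pairs of 5' ends 21 to 30 nt apart 32 in WT liver and 0 in WT spleen. Leaving an unmatched last A out of the length ended the calls of 5' A in WT liver (4.23), the last 25% in Miwi2-/- spleen (-18.0) and the unmatched A in Miwi2-/- liver (14.3) and spleen (9.05), and gave one for the unmatched A in WT liver (-8.99). In WT spleen the unmatched A turned to -2.37. With a minimum of 28 nt, 5' A in WT liver (3.17), the last 25% (-19.8) and the unmatched A (21.2) in Miwi2-/- spleen lost theirs, the nested share of Miwi2-/- spleen minus WT spleen gained one (17.0), 5' A in Miwi2-/- spleen turned to -0.23, and 18 genes of Miwi2-/- spleen had a long sequence. A minimum of 26 nt gave 12 pairs in WT spleen. Against all sequences under 27 nt, A at position 10 (-5.61) and the unmatched A (10.1) gained a call in WT spleen, and the unmatched A in WT liver (3.21) and 5' A in Miwi2-/- liver (0.25) turned. With an overlap of at least 15 nt in place of full enclosure the nested share of WT liver minus WT spleen gained one (6.32), as it did without the gene with the most long sequences of each library (3.78). That alternative also ended the call of the last 25% in Miwi2-/- spleen (-18.7) and gave one for the unmatched A in WT spleen (6.42). The cause of these changes was not tested. Chosen after seeing the data were the omission of Alb, which left 66 of 127 pairs in WT liver, and the direction of the deposited cluster, under which all 20 values within libraries kept their direction and side of the threshold.

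No paired analysis was possible because each tissue and genotype is 1 library and the labels give no replicate numbers. Distinct sequences stand for depth, and the 101 and 55 long sequences of the Miwi2-/- libraries leave wide intervals on base shares.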
